A study of Mus musculus with 8 samples.

Results

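Collagens and laminins are the structural proteins of the extracellular matrix and of basement membranes, the sheets that wrap brain capillaries and line the pial surface. They were taken from the deposited table of all genes as the protein-coding genes named Col followed by chain numbers, or Lama, Lamb or Lamc followed by a number. This gave 55 genes, 44 collagens and 11 laminins, of 54532 genes listed and 22046 protein-coding ones. Transcripts were measured by RNA sequencing in hippocampus of adult mice, in 4 libraries labelled WT (wild type) and 4 labelled Kat6a+/-, mice with 1 intact copy of the gene for the histone acetyltransferase KAT6A. The labels give no treatment, sex, litter or age beyond adult, do not say how the allele was made, and leave unsaid whether libraries are separate animals, so p-values measure the spread between libraries. The study's title concerns cognition and RSPO2/Wnt signalling in the CA3 field, and no label raises a question about the matrix.

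A collagen is an assembly of alpha chains wound into a helix, and each collagen type has its own set of chain genes. Type IV collagen forms the network of basement membranes, types I, III and V form fibrils, type VI forms beaded filaments, FACIT collagens (IX, XVI, XIX and others) decorate fibrils, and a few (XIII, XVII, XXIII, XXV) span the cell membrane. A laminin joins an alpha, a beta and a gamma chain and binds cells to the basement membrane through integrins and dystroglycan. In brain, the collagen IV and laminin of vessels come mainly from endothelial cells, pericytes and astrocytes, and fibril collagens mainly from fibroblasts of the meninges and larger vessels.

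Library depth ran from 16462428 to 27875310 reads, and Kat6a itself was at 8.55 to 9.71 FPKM in the WT group and 6.06 to 7.64 FPKM in Kat6a+/- libraries, without overlap (exact two-sided permutation test, p = 0.0286, the smallest that 4 against 4 libraries allow). FPKM is fragments per unit of gene length, here after the authors' scaling between libraries. All 8 markers of hippocampal tissue were measured, their sum lying between 1444 and 1665 FPKM per library. Of the 14159 genes that averaged 0.5 FPKM or more, limma called 0 (0.0%) at an adjusted p under 0.05. By unadjusted p under 0.05, 252 genes (1.78%) were higher and 372 (2.63%) lower in Kat6a+/-, and DESeq2 called 5 genes where edgeR and limma-voom called 0.

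A pair of libraries stood apart. WT replicate 1 held a summed level of 10 meningeal fibroblast markers of 30.5 FPKM where the other 7 ran from 16.8 to 21.2 FPKM, and it had the highest value of the 8 libraries for 23 of the 55 collagen and laminin genes. Kat6a+/- replicate 2 held a choroid plexus marker sum of 159 FPKM against 28.7 to 47.2 FPKM in the others. The collagen and laminin results that rest on WT replicate 1 are given with and without it.

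The level of these genes spanned a wide range. A total of 19 of the 55 genes (14 collagens and 5 laminins) reached the mean of 0.5 FPKM needed for the test, and 36 did not. The threshold fell between Col5a1, inside at a mean of 0.525 FPKM, and Col15a1, outside at 0.495 FPKM. A total of 29 genes stayed under 100 reads in every library. The most abundant was Col25a1, a membrane-spanning collagen made by neurons and known from amyloid plaques, at a mean of 6.96 FPKM over the 8 libraries. Next in mean level came Col4a2 at 5.27, Lamc1 at 4.71, Lamb1 at 4.46, Lamb2 at 3.79, Col11a2 at 3.67, Col4a1 at 3.66 and Col9a3 at 2.64 FPKM. From Col25a1 down to Col4a1, neighbours in this order had overlapping ranges over the 8 libraries.

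**Figure D1:**
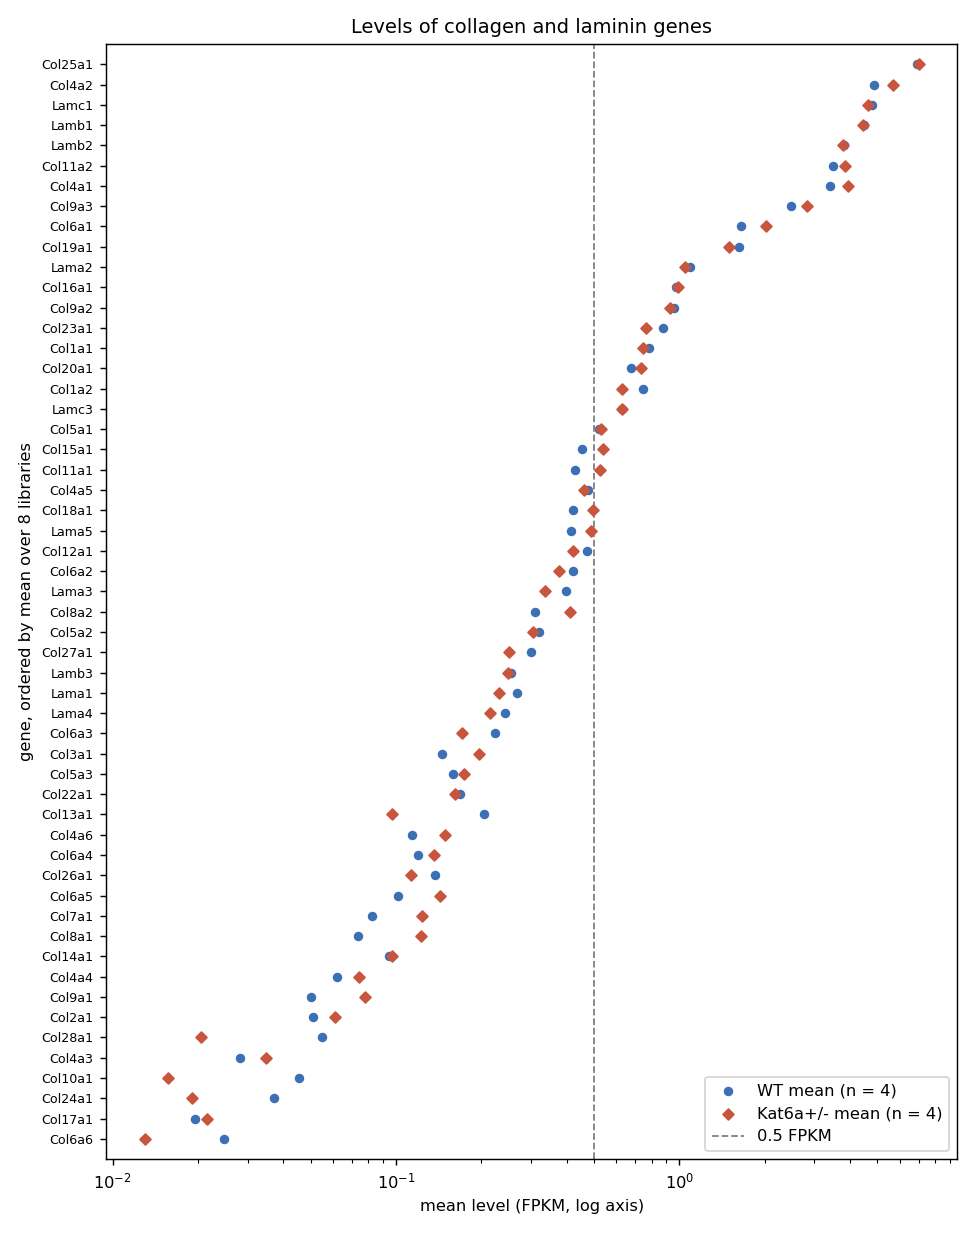
Mean level of 54 of the 55 genes in FPKM on a log axis, ordered by the mean over the 8 libraries. Circles are WT means and diamonds Kat6a+/- means (n = 4 each). The dashed line is the 0.5 FPKM needed for the test, which 19 genes passed.

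The clearest separation between genotypes among these genes was in the chains of the main basement membrane collagen, Col4a1 and Col4a2. Their protein products wind together into the collagen IV of brain vessels, and variants of either human gene cause small vessel disease of the brain. Both were at 116% of the WT mean in Kat6a+/-. Neither passed the threshold after adjustment. Since the tissue was sequenced in bulk, a difference in the number of cells of a type and a difference in RNA per cell cannot be told apart.

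The genes lie head to head on chromosome 8, with their starts so close that the annotated genes overlap by 22 bases on opposite strands. Col4a1 (ENSMUSG00000031502) runs from 11198423 to 11312826 on the minus strand and Col4a2 (ENSMUSG00000031503) from 11312805 to 11449287 on the plus strand (GRCm38). The shared start region is shown because these are the 2 members that separated most between genotypes and their promoter windows share DNA. The windows, from RefSeq (GRCm38.p6), run from 250 bases before to 50 bases after each gene's start, at chr8:11312777-11313076 on the minus strand and chr8:11312555-11312854 on the plus strand. Capitals mark a CCAAT box (CCAAT, or ATTGG on the other strand) or a GC box (GGGCGG, or CCGCCC).
Col4a1: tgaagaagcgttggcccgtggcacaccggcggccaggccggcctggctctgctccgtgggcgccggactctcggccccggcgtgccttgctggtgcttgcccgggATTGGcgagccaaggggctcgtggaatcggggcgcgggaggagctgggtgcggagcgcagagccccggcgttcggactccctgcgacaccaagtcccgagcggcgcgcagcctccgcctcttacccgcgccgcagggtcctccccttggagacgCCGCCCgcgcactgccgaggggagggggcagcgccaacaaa
Col4a2: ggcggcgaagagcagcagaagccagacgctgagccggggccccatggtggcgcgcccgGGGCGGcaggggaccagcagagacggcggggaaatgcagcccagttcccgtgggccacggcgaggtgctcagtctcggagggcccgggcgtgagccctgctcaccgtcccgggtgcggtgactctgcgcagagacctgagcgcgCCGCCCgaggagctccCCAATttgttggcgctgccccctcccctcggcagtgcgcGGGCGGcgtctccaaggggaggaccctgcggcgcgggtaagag
The windows overlap by 78 bases. Each holds 1 CCAAT box, 145 bases before the start in Col4a1 and 32 bases before it in Col4a2. Of the GC boxes, 1 in Col4a1 and 3 in Col4a2, the match at 11312812 to 11312817 is the same 6 bases read from either strand. Neither window holds TATAAA or its reverse TTTATA. The windows are 74.0% and 73.7% G or C, against a median of 52.7% over the table's 32851 windows. A total of 40 of the 55 genes had a window, and 15 did not. A CCAAT box occurred in 13 of the 40 (32.5%) and in 37.4% of all windows, a GC box in 25 (62.5%) and 35.7%, and TATAAA in 5 (12.5%) and 13.6%, counting both strands. The 40 are 1 window per protein-coding gene, while all windows were limited in neither way, so the shares come from unlike sets. The capitalised matches do not overlap one another within a window, and they describe letters only.

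Col4a1 was at 3.70, 3.39, 3.21 and 3.27 FPKM in WT replicates 1 to 4 and at 4.41, 3.73, 3.79 and 3.79 FPKM in Kat6a+/- replicates 1 to 4. Every Kat6a+/- library was above every WT library, though Kat6a+/- replicate 2 and WT replicate 1 lay close together. The means were 3.39 ± 0.220 FPKM (SD, n = 4) and 3.93 ± 0.319 FPKM (SD, n = 4), from 418 to 947 reads per library. Fold changes here are differences of mean log2(FPKM + 0.5). For Col4a1 limma gave 0.18 ± 0.07 (SE; 95% interval 0.03 to 0.34; unadjusted p = 0.0216, adjusted p = 0.9998). The exact permutation test gave p = 0.0286, unadjusted.

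Col4a2 was at 4.52, 4.69, 5.25 and 5.01 FPKM in the WT group and at 5.80, 4.80, 6.30 and 5.75 FPKM in Kat6a+/- replicates 1 to 4. Kat6a+/- replicate 2 lay within the WT range and the other 3 Kat6a+/- libraries above it. The means were 4.87 ± 0.326 FPKM (SD, n = 4) and 5.67 ± 0.626 FPKM (SD, n = 4), with a log2 fold change of 0.20 ± 0.08 in limma (SE; 95% interval 0.02 to 0.38; unadjusted p = 0.0342, adjusted p = 0.9998; exact permutation p = 0.0857). The sum of both chains did not overlap between groups, at 8.08 to 8.46 FPKM in the WT group and 8.54 to 10.2 FPKM in Kat6a+/-. In the authors' deposited table the log2 fold changes were 0.22 for either gene, with unadjusted p-values of 0.0136 for Col4a1 and 0.0167 for Col4a2 and an adjusted p of 0.9998 for each.

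These were the only 2 of the 19 tested genes at an unadjusted p under 0.05, both higher, against 1.78% higher over all genes tested. Col4a1 was also the only tested member whose groups did not overlap. Over all genes tested, 155 (1.09%) were higher without overlap and 216 (1.53%) lower. The chains are not independent observations, since they share a start region and a trimer. Leaving out 1 library at a time kept both positive, with limma's unadjusted p between 0.0104 and 0.0598 for Col4a1 and between 0.00305 and 0.10 for Col4a2. Neither was under 0.05 without Kat6a+/- replicate 1 (0.0598 and 0.0721), and without WT replicate 1 the values were 0.0104 and 0.0857.

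Vessel cell markers are given beside collagen IV. The summed level of 10 mural cell markers (pericytes and smooth muscle) was 32.0 to 38.1 FPKM in the WT group and 32.7 to 41.3 FPKM in Kat6a+/-, and 6 of its 8 tested genes had a positive fold change, at a median of 0.08. The fold changes of the 8 ran from -0.05 to 0.41. Of the 8, 2 were at an unadjusted limma p under 0.05, both higher, against 1.78% higher over all genes tested. Rgs5, a pericyte marker and 1 of these, was at 11.1 ± 0.557 and 12.9 ± 1.18 FPKM (SD, n = 4 each; limma, log2 fold change 0.21, unadjusted p = 0.0126). The sum of 10 endothelial markers was 29.0 to 32.5 FPKM in the WT group and 26.7 to 34.3 FPKM in Kat6a+/-. Its members differed among themselves, Pecam1 being lower without overlap (1.10 ± 0.155 and 0.808 ± 0.173 FPKM, SD, n = 4 each) and Tek higher without overlap (limma, log2 fold change 0.24, unadjusted p = 0.0587). The part of vessel cells in the collagen IV values was not tested.

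**Figure D2:**
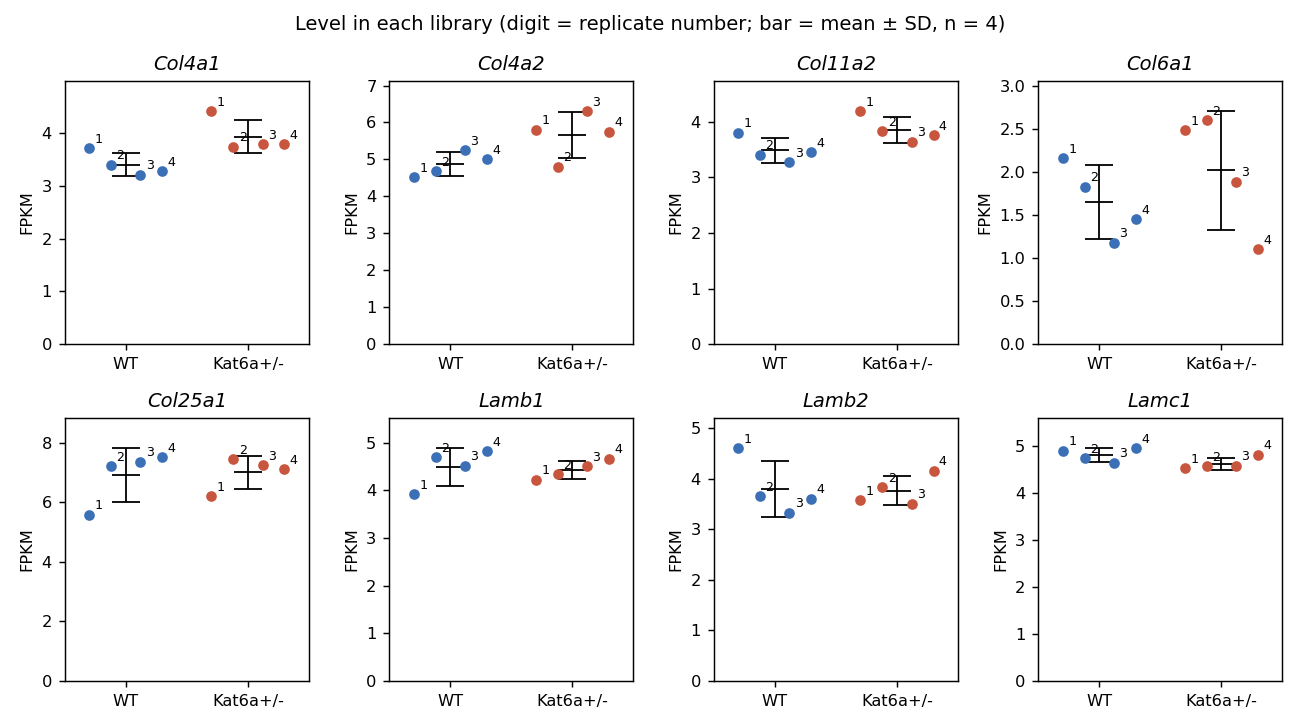
Level in FPKM of 8 genes in each library, numbered by replicate, with the mean ± SD (n = 4) as a bar; every axis starts at 0. Col4a1 is the gene whose groups do not overlap, with WT libraries at 3.21 to 3.70 FPKM and Kat6a+/- libraries at 3.73 to 4.41 FPKM.

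The other collagen IV chains were scarce. They form the networks of kidney, lung, eye and smooth muscle basement membranes and are arranged in head-to-head pairs as well, Col4a4 and Col4a3 separated by 71 bases on chromosome 1 and Col4a6 and Col4a5 by 1308 bases on chromosome X. Col4a5 was at 0.604, 0.424, 0.505 and 0.378 FPKM in the WT group and 0.502, 0.427, 0.495 and 0.418 FPKM in Kat6a+/- replicates 1 to 4. Col4a6 ran from 0.0794 to 0.186 FPKM, Col4a4 from 0.0520 to 0.0851 FPKM and Col4a3 from 0.00993 to 0.0499 FPKM, with groups that overlapped in all 4 genes. The sum of the 6 chains, of which Col4a1 and Col4a2 make up most, was 8.72 to 9.16 FPKM in the WT group and 9.25 to 10.9 FPKM in Kat6a+/-.

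The ratio of Col4a2 to Col4a1 varied between libraries more than between genotypes. It was 1.22, 1.38, 1.63 and 1.53 in WT and 1.32, 1.29, 1.66 and 1.52 in Kat6a+/- replicates 1 to 4, with means of 1.44 ± 0.181 and 1.45 ± 0.177 (SD, n = 4 each). Replicates 1 and 2 of either genotype lay at or below 1.38 and replicates 3 and 4 at or above 1.52, a pattern noticed after the values were seen. The labels give no batch or date that could be set beside it.

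Col4a1 and Col4a2 are also the members on the chromosome of Kat6a, which starts 11.4 Mb beyond the end of Col4a2. Of the 68 other tested genes between them, 37 had a positive fold change, at a median of 0.01. Of these, 1 (1.47%) was higher without overlap and 0 lower without overlap, against 1.09% and 1.53% over all genes tested. An unadjusted limma p under 0.05 was found for 3 of the 68, against 624 of the 14159 genes tested (4.41%).

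Among the laminins, all 5 tested chains had a fold change below 0, between -0.05 and -0.00 with a median of -0.01, and none had groups without overlap. This direction rested on single libraries, since 3 of the 5 were above 0 without WT replicate 1 and 4 without Kat6a+/- replicate 1. Lamc1, the gamma chain of most laminins, was at 4.89, 4.73, 4.64 and 4.95 FPKM in the WT group and 4.52, 4.57, 4.58 and 4.81 FPKM in Kat6a+/-. The Kat6a+/- mean was lower by more than either SD (4.80 ± 0.143 and 4.62 ± 0.130 FPKM, n = 4 each), and the groups overlapped. Its 95% interval for the log2 fold change, -0.16 to 0.05 around -0.05, was the narrowest of the 5 (limma, unadjusted p = 0.305). It excludes, before any adjustment, a difference of the size measured for Col4a1.

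The beta chains differed in their library pattern. Lamb1, the widespread beta chain, was at 3.92, 4.69, 4.52 and 4.83 FPKM in the WT group and 4.22, 4.34, 4.51 and 4.67 FPKM in Kat6a+/-. Lamb2, a chain of vascular and pial basement membranes, was at 4.61, 3.66, 3.33 and 3.60 FPKM in the WT group and 3.58, 3.84, 3.51 and 4.16 FPKM in Kat6a+/-. WT replicate 1 was the lowest library for Lamb1 and the highest for Lamb2, so that the ratio of Lamb1 to Lamb2 was 0.850 there and 1.12 to 1.36 in the other 7. The sum of both was nearly level, from 7.80 to 8.83 FPKM over the 8 libraries.

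Alpha chains were the scarcest laminin chains. Lama2, the alpha chain of astrocyte and muscle basement membranes whose loss causes a muscular dystrophy, was at 1.22, 0.983, 0.958 and 1.19 FPKM in the WT group and 0.899, 1.16, 1.05 and 1.07 FPKM in Kat6a+/-. Lama5, Lama3, Lama1 and Lama4 lay below the test's minimum, the highest library among them at 0.631 FPKM (Lama3, WT replicate 1). Summed by chain type, alpha chains held 2.07 to 3.06, gamma chains 5.15 to 6.57 and beta chains 8.07 to 9.07 FPKM per library. In each library, then, the beta sum was above the gamma sum and the gamma sum above the alpha sum. Lamc3, a gamma chain of cortical surface and retina, was at 0.747, 0.458, 0.579 and 0.725 FPKM in the WT group and 0.411, 0.651, 0.867 and 0.584 FPKM in Kat6a+/-.

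Of the 14 tested collagens 11 had a positive and 3 a negative fold change, at a median of 0.02, and over all 19 tested genes the median was 0.01, with 11 positive. All genes tested had a median of 0.00, with 7169 positive and 6990 negative. Without WT replicate 1 the median of the 19 genes was 0.12, with 15 positive, and without Kat6a+/- replicate 4 it was 0.09, with 12 positive. Without Kat6a+/- replicate 2 it was -0.01, with 5 positive. On the recovered reads, edgeR and DESeq2 each gave a median of -0.01 with 9 positive, and limma-voom gave 0.05 with 11 positive. No common direction was thus measured for the family.

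**Figure D3:**
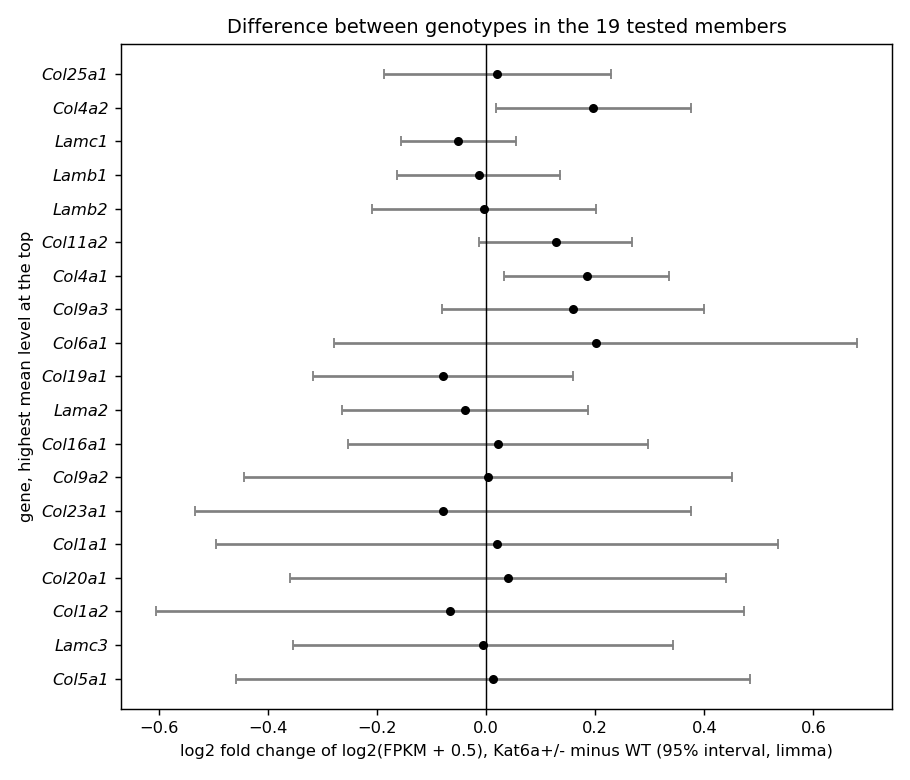
Log2 fold change of the 19 tested genes, Kat6a+/- minus WT on the log2(FPKM + 0.5) scale, with limma's 95% interval, ordered by mean level from the top. The intervals of Col4a1 and Col4a2 lie above 0 before adjustment and the other 17 cross it.

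Among fibrillar collagens, Col11a2, known as a cartilage and inner ear collagen, was the most abundant. It was at 3.81, 3.41, 3.28 and 3.46 FPKM in the WT group and 4.19, 3.83, 3.65 and 3.76 FPKM in Kat6a+/-. All Kat6a+/- libraries were above WT replicates 2, 3 and 4, and WT replicate 1 lay among them. Its log2 fold change was 0.13 ± 0.06 (SE; limma, unadjusted p = 0.0698; exact permutation p = 0.0857). Leaving out 1 library at a time gave 0.09 to 0.17, with limma's unadjusted p between 0.0264 and 0.182. That p was under 0.05 only without WT replicate 1.

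Type I collagen, the main collagen of fibroblasts, was low in all libraries but WT replicate 1. Col1a1 was at 1.52, 0.656, 0.551 and 0.404 FPKM in the WT group and 0.815, 0.867, 0.752 and 0.542 FPKM in Kat6a+/-, and Col1a2 was at 1.53, 0.483, 0.386 and 0.573 FPKM and 0.517, 0.685, 0.767 and 0.536 FPKM. The sum of Col1a1, Col1a2 and Col3a1, which with type I makes the fibrils of loose connective tissue, was 3.27 FPKM in WT replicate 1. It was 1.06 to 1.79 FPKM in the other 7 libraries. Col3a1 alone was at 0.217 FPKM in WT replicate 1, inside the 0.111 to 0.239 FPKM of the other 7, so the excess of the sum lay in Col1a1 and Col1a2. Col5a1, which sets fibril diameter, ran from 0.314 to 0.851 FPKM in the WT group and from 0.270 to 0.847 FPKM in Kat6a+/-.

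Collagen VI was carried by Col6a1, at 2.16, 1.83, 1.18 and 1.45 FPKM in the WT group and 2.48, 2.60, 1.89 and 1.10 FPKM in Kat6a+/-. Kat6a+/- replicate 4 was the lowest library and Kat6a+/- replicate 2 the highest, so the spread inside the group covered the whole WT range. The log2 fold change of 0.20 ± 0.21 (SE; 95% interval -0.28 to 0.68) was as large as that of Col4a2 but far less precise (limma, unadjusted p = 0.372). Col6a2 and Col6a3, its usual partner chains, stayed below the test's minimum, Col6a2 at 0.250 to 0.713 FPKM and Col6a3 at 0.115 to 0.294 FPKM.

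Col9a3, a chain of collagen IX that coats cartilage fibrils, led the FACIT group at 2.84, 2.72, 2.35 and 1.99 FPKM in the WT group and 3.21, 2.53, 2.53 and 2.98 FPKM in Kat6a+/-. Its partner Col9a2 was lower, at 1.61, 0.842, 0.701 and 0.660 FPKM and 1.01, 1.07, 1.02 and 0.612 FPKM, and Col9a1 was at 0.0327 to 0.104 FPKM. The 3 chains of collagen IX were thus present at unequal levels in every library. Col19a1, which mouse work ties to inhibitory synapses of the hippocampus, was at 1.89, 1.72, 1.24 and 1.65 FPKM in the WT group and 1.53, 1.42, 1.67 and 1.38 FPKM in Kat6a+/-. Its log2 fold change of -0.08 ± 0.11 had an unadjusted p of 0.471 (SE; limma), and it was -0.02 without WT replicate 1 and -0.17 without WT replicate 3. Col20a1 overlaps 9230112E08Rik on the same strand by 741 bases, and that gene held 2725 reads in all against 609 for Col20a1, so the level of Col20a1 is uncertain.

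Of the membrane-spanning collagens, Col25a1 was at 5.59, 7.22, 7.36 and 7.52 FPKM in the WT group and 6.20, 7.44, 7.25 and 7.11 FPKM in Kat6a+/-. Replicate 1 was the lowest library in each genotype, and the log2 fold change was 0.02 ± 0.09 (SE; limma, 95% interval -0.19 to 0.23). Col23a1 was at 1.52, 0.634, 0.781 and 0.558 FPKM in the WT group and 0.721, 1.04, 0.660 and 0.640 FPKM in Kat6a+/-. Its log2 fold change was -0.08 ± 0.20 with all libraries and 0.12 without WT replicate 1 (SE; limma, unadjusted p = 0.706 with all). Col13a1, a collagen of the neuromuscular synapse, lay below the test's minimum at 0.129, 0.211, 0.265 and 0.216 FPKM in the WT group and 0.143, 0.0830, 0.0498 and 0.112 FPKM in Kat6a+/-, from 4 to 27 reads per library. The authors' deposited table lists it with a log2 fold change of -1.05 (unadjusted p = 0.0219, adjusted p = 0.9998), and its groups overlapped.

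The 36 untested genes held groups that overlapped in every case. The highest by mean were Col15a1 at 0.495, Col11a1 at 0.477, Col4a5 at 0.469 and Col18a1 at 0.459 FPKM. Col15a1 and Col18a1, basement membrane collagens with heparan or chondroitin sulfate chains, ran from 0.306 to 0.607 FPKM and from 0.392 to 0.629 FPKM. Col18a1 overlaps Slc19a1 by 8825 bases on the opposite strand. That gene held 1600 reads in all against 515 for Col18a1, and the strand setting was not given, so the level of Col18a1 is uncertain. The lowest were Col17a1 and Col6a6, with at most 5 and 7 reads in a library. Of the untested genes, 8 reached over 100 reads in a library.

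WT replicate 1 shaped much of the variation within the WT group. Over the median of the other 7 libraries its level was 2.85 times as high for Col1a2, 2.32 for Col1a1, 2.30 for Col23a1, 1.92 for Col9a2 and 1.90 for Col5a1. Lama3, an alpha chain of epithelial laminin, was at 0.631 FPKM there and 0.226 to 0.401 FPKM elsewhere.

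Markers of meningeal fibroblasts went the same way in that library. Fmod was at 3.35 FPKM against 0.465 to 0.954 FPKM elsewhere, Aldh1a2 at 2.08 against 0.456 to 1.22 FPKM, and Slc22a6 at 1.29 against 0.314 to 0.544 FPKM. With all libraries, 1 of the 9 tested fibroblast markers had a positive and 8 a negative fold change, at a median of -0.12. Of these, 0 were at an unadjusted limma p under 0.05. The mean of the summed markers was 21.10 FPKM in the WT group and 18.40 FPKM in Kat6a+/-. Without WT replicate 1 the WT mean was 17.96 FPKM, so the sum was lower in Kat6a+/- only with that library included. The part of meningeal tissue in the collagen values was not tested. The sum of Col4a1 and Col4a2 did not share the pattern, at 8.23 FPKM in WT replicate 1, within the 8.08 to 8.46 FPKM of the other WT libraries. The single chains went apart there. WT replicate 1 was the highest WT library for Col4a1 (3.70 FPKM) and the lowest of all 8 libraries for Col4a2 (4.52 FPKM). For Col4a5 it was the highest of all 8 (0.604 FPKM).

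**Figure D4:**
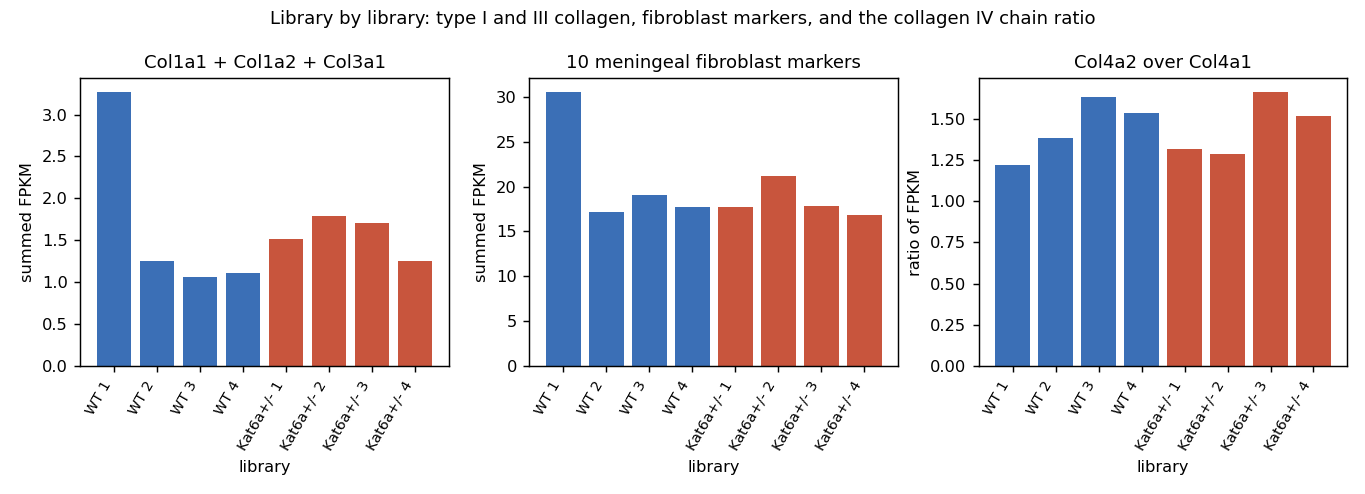
Summed FPKM of Col1a1, Col1a2 and Col3a1, summed FPKM of 10 meningeal fibroblast markers, and the ratio of Col4a2 to Col4a1, in each library; axes start at 0. WT replicate 1 stands above the others in the left and middle panels (3.27 and 30.5 FPKM), and the ratio lies between 1.22 and 1.66. Col3a1 alone did not stand out there, at 0.217 FPKM in WT replicate 1 and 0.111 to 0.239 FPKM in the other libraries.

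**Figure D5:**
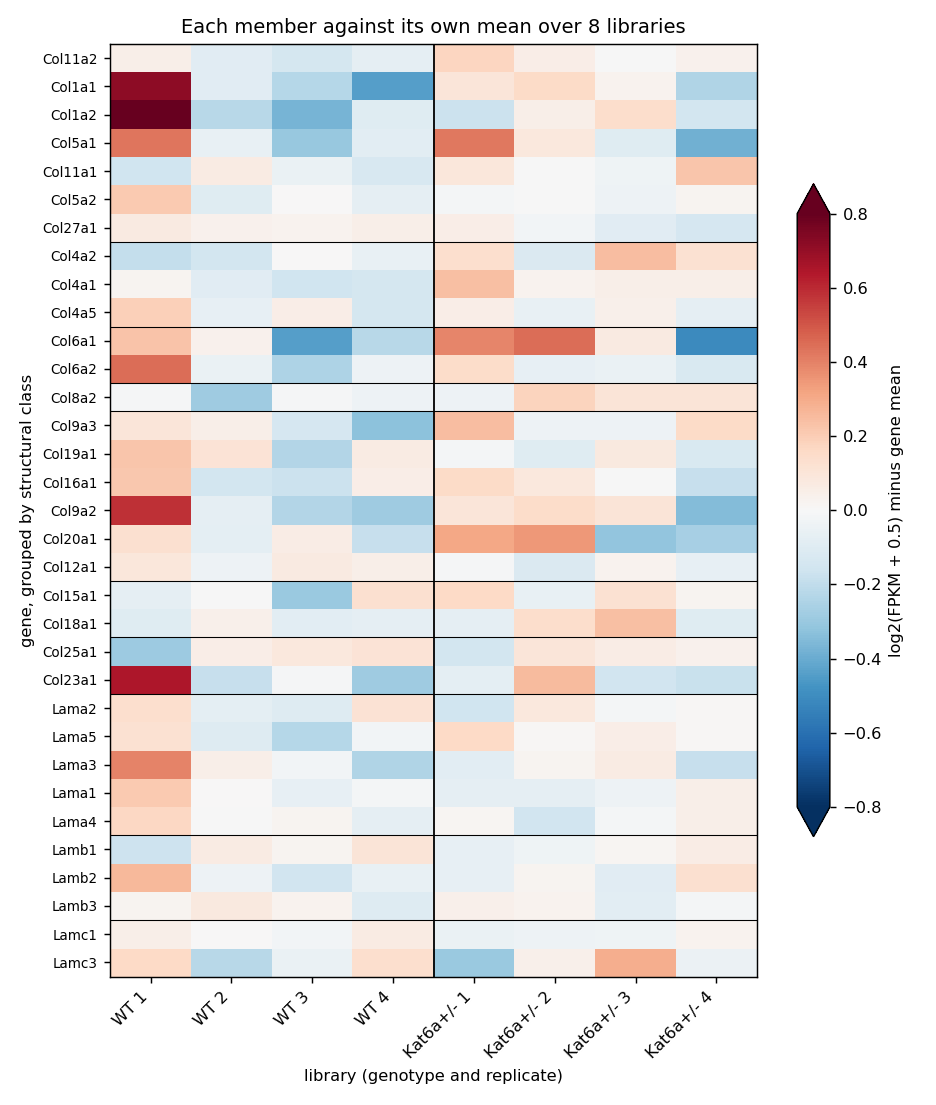
Log2(FPKM + 0.5) of genes averaging 0.2 FPKM or more, minus its mean over the 8 libraries, by library and grouped by class. The WT replicate 1 column is highest for Col1a1, Col1a2, Col23a1 and Col9a2 and low for Col25a1 and Lamb1.

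Whether chains of a trimer varied together over libraries was examined for the 5 of 9 chain pairs with both chains tested, over 8 libraries, with exact permutation p-values. Col1a1 and Col1a2 had r = 0.848 (p = 0.0228, adjusted over the 5 pairs 0.114) and rho = 0.50 (p = 0.216, adjusted 0.299, exact permutation). Without WT replicates 1 and 4, farthest from the median of Col1a1, r was 0.645 over 6 libraries (exact permutation p = 0.172). The relation was weaker without those libraries, and 6 libraries are too few to say whether it rests on them. Col4a1 and Col4a2 had r = 0.458 (exact permutation p = 0.259, adjusted 0.324) and rho = 0.571 (p = 0.151, adjusted 0.299), and r was 0.438 without Kat6a+/- replicate 1 and WT replicate 3. With the genotype means removed their r was -0.12. With the means of replicates 1 and 2 and of replicates 3 and 4 removed it was 0.893, so the relation depended on what was removed. That split was noticed in the ratio of these same chains, so the higher r cannot serve as evidence that the chains vary together.

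The laminin pairs gave no stable relation. Lamb1 with Lamc1 had r = 0.182 (exact permutation p = 0.673, adjusted 0.673) and rho = 0.476 (p = 0.243, adjusted 0.299), with r = 0.891 when WT replicates 1 and 4 were left out. Lamb2 with Lamc1 had r = 0.517 (exact permutation p = 0.193, adjusted 0.324) and rho = 0.429 (p = 0.299, adjusted 0.299), with r = 0.00936 when WT replicate 1 and Kat6a+/- replicate 4 were left out. Col4a1 with Lamc1 had r = -0.498 (exact permutation p = 0.212, adjusted 0.324) and rho = -0.571 (p = 0.151, adjusted 0.299), with r = -0.525 without Kat6a+/- replicate 1 and WT replicate 3.

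Genes that act on collagens and laminins were read from lists chosen by function, and 0 of their members were past the threshold in limma. All 18 listed enzymes and chaperones of collagen modification and folding were tested, 12 with a positive and 6 with a negative fold change, at a median of 0.04. P4ha1, a catalytic chain of prolyl 4-hydroxylase, was at 12.9 ± 0.599 FPKM in the WT libraries (SD, n = 4) and at 11.7 to 12.4 FPKM in the Kat6a+/- libraries, lower without overlap (limma, log2 fold change -0.10, unadjusted p = 0.0439). The groups nearly touched, with WT replicate 3 at 12.40 FPKM and Kat6a+/- replicate 2 at 12.39 FPKM. P4hb, the other chain of that enzyme, was at 30.4 ± 0.955 and 31.9 ± 0.630 FPKM (SD, n = 4 each), higher without overlap (limma, log2 fold change 0.07, unadjusted p = 0.105). P3h2, a prolyl 3-hydroxylase acting on collagen IV, was at 0.957 ± 0.0776 and 0.766 ± 0.125 FPKM (SD, n = 4 each; limma, unadjusted p = 0.0849).

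Of 14 listed basement membrane partners, such as nidogens, perlecan and agrin, 12 were tested, 8 with a positive and 4 with a negative fold change, at a median of 0.01. Sparc, a collagen-binding matrix protein, was at 71.4, 61.0, 69.8 and 70.3 FPKM in the WT group and 56.8, 63.7, 61.6 and 59.4 FPKM in Kat6a+/- (limma, log2 fold change -0.17, unadjusted p = 0.0148). WT replicate 2 lay among the Kat6a+/- libraries and the other 3 WT libraries above them. Fbln2, a fibulin, was at 0.726 ± 0.165 and 0.891 ± 0.0769 FPKM (SD, n = 4 each; limma, unadjusted p = 0.153).

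Of 12 genes of matrix breakdown and its inhibitors 10 were tested, 1 with a positive and 9 with a negative fold change, at a median of -0.09. Timp2, an inhibitor of matrix metalloproteinases, was at 77.7, 57.8, 73.5 and 69.0 FPKM in the WT group and 56.2, 63.2, 59.3 and 52.0 FPKM in Kat6a+/- (limma, log2 fold change -0.26, unadjusted p = 0.0167), the groups overlapping through WT replicate 2. Mmp14, a membrane-bound collagenase, was at 2.14 ± 0.260 and 1.86 ± 0.0371 FPKM (SD, n = 4 each), lower without overlap (limma, log2 fold change -0.16, unadjusted p = 0.0779).

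Collagen processing and cross-linking genes were scarcer, 8 of 13 being tested, 6 with a positive and 2 with a negative fold change, at a median of 0.09. Adamts2, a procollagen N-proteinase, was at 1.23 ± 0.126 and 1.03 ± 0.131 FPKM (SD, n = 4 each; limma, unadjusted p = 0.0983), and Pcolce2 had an unadjusted p of 0.305 in limma. Of 16 listed receptors 12 were tested, 8 with a positive and 4 with a negative fold change, at a median of 0.08. Itga3, an integrin chain that binds laminin, was at 2.47 ± 0.197 and 2.69 ± 0.0492 FPKM (SD, n = 4 each; limma, unadjusted p = 0.137), and Ddr1, a collagen-binding kinase, at 14.5 ± 0.603 and 15.4 ± 0.992 FPKM (SD, n = 4 each; limma, unadjusted p = 0.146).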

How the data were processed

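The tools named are STAR 2.5, HTSeq and DESeq2 and the build GRCm38 (mm10), per the submitters' processing notes. The annotation release and strand setting were not given in the sources used here. Deposited values were FPKM for all genes, made by the authors. A second table, of 605 genes, holds the authors' counts, FPKM, normalised signal, log2 fold changes and p-values, per the file headers. Times gene length and 1 constant per library, 100% of FPKM values came out whole (tolerance 0.01 reads) and equal the deposited counts for all 605 genes. RNA was isolated with Trizol and DNase, and libraries used a NEBNext Ultra II kit, per the labels' protocols.

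The main test was limma 3.58.1 (R 4.3.3) with a variance trend on log2(FPKM + 0.5), which understates changes of low genes, for the 14159 genes that averaged 0.5 FPKM or more. It was two-sided, adjusted by Benjamini-Hochberg over those genes, threshold 0.05. Single values had an exact permutation test over 70 assignments. Recovered reads entered limma-voom, edgeR 4.0.16 and DESeq2 1.42.0 as alternatives. An edgeR fit of genes with a mean of at least 20 reads was chosen after seeing the data. The limma, limma-voom, edgeR and DESeq2 fits were tested on simulated counts.

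The genes, the lists and the tests were chosen with earlier results of these data known. Named genes were the 2 most abundant tested members of each class, the 3 with the smallest p per direction, those without overlap and the head-to-head pairs, plus 2 per other list. Other genes with values were chosen after their values were seen. Values of 1 laminin gene are not reported here, and it is not drawn in the figures.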

Additional observations from a re-analysis of the deposited data

Results flagged for a closer look

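Of 54 groups of 4 libraries (the tested genes in each genotype and the summed marker lists), 6 had a library farther from the other 3 than Dixon's 95% critical value allows; chance gives about 1 in 20 groups. In WT replicate 1, Col25a1 was lowest at 5.59 FPKM (the other WT libraries 7.22 to 7.52), Col1a2 highest at 1.53 FPKM (0.386 to 0.573) and the meningeal fibroblast marker sum highest at 30.5 FPKM (17.1 to 19.1). In Kat6a+/- replicate 1, Col4a1 was highest at 4.41 FPKM (3.73 to 3.79). In Kat6a+/- replicate 4, Col9a2 was lowest at 0.612 FPKM (1.01 to 1.07). In Kat6a+/- replicate 2, the choroid plexus marker sum was highest at 159 FPKM (35.1 to 47.2).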

How the results depend on the processing

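No collagen or laminin gene passed the threshold in any of 23 alternatives. Genes of the whole table past it numbered 0, but 5 with DESeq2 and 0 to 1 when a library was left out. Members at an unadjusted p under 0.05 numbered 2, and 0 to 2 when a library was left out. With a replicate block they numbered 3 (Col11a2 added; unadjusted p = 0.0110 for Col4a1 and 0.0168 for Col4a2 in limma), though same-numbered libraries deviated together only at r = 0.166, -0.07, 0.07 and 0.01, so the numbers were not taken as pairs. Without a filter on low values they numbered 3 of 55 (Col13a1 added). With edgeR on genes averaging at least 20 reads they numbered 2 of 43. Of the fold changes of 6 genes, 136 alternatives kept the direction and 1 did not, Col23a1 at 0.12 without WT replicate 1 (-0.19 to 0.12 when a library was left out). Col4a1 ran from 0.13 to 0.22 and Col4a2 from 0.15 to 0.27. The r of Col4a1 with Col4a2 was -0.12 with genotype means removed. It was 0.893 with the means of replicates 1 and 2 and of replicates 3 and 4 removed, a split noticed in these same values. Depth limits the 29 genes under 100 reads in every library. The causes were not tested.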
